A study of Homo sapiens with 6 samples.

Results

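PUM3 and 44 further nucleolar genes of ribosome biogenesis were followed in T24 cells after knockdown of TRIM28. The 45 genes are 45 of the 78932 genes in the count table, and all 45 had enough reads to be tested. They were picked by symbol for their role in making ribosomes, and the list was chosen by a reading that already had the siTRIM28 against siNC contrast of these libraries in view. Their fold changes and calls in that contrast are therefore given as a description, and no test is read from them.

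T24 is an established line of human bladder carcinoma cells. The 3 siNC libraries came from T24 cells given a control siRNA (siNC) and the 3 siTRIM28 libraries from T24 cells given siRNA against TRIM28, a corepressor that KRAB zinc-finger proteins bring to chromatin. All 6 libraries were made from poly(A) RNA with a stranded kit and carry 1 batch label. The labels call the replicates of each group biological, but do not say which TRIM28 siRNA was used or how long after transfection the cells were taken. A p-value here sets the difference between the groups against the spread of libraries within a group, for 6 libraries of 1 cell line.

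The nucleolus is where RNA polymerase I copies the ribosomal DNA into a long precursor, and where that precursor is folded, chemically modified, cut and packed with ribosomal proteins into the small and the large subunit. Box C/D and box H/ACA small nucleolar ribonucleoproteins (snoRNPs) guide 2′-O-methylation and pseudouridylation of the precursor. Large scaffolds, the small subunit processome among them, then hold the RNA while helicases, methyltransferases and GTPases act on it. Fast-growing cells make many ribosomes, and the genes of these factors are transcribed strongly in most cultured tumour lines.

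The promoter stretches of 5 of the genes are shown, 4 because these genes were the furthest below siNC (PUM3, DDX10, NCL and POLR1B) and the last because it was the only member past the threshold on the higher side (DKC1). Each run covers 250 bases before and 50 after the RefSeq start of the gene (GRCh38.p14), written 5′ to 3′ along the gene. Capitals mark CACGTG (the E-box, a site of MYC-MAX and related factors), CCGGAAG or its complement CTTCCGG (an ETS-type site) and TCGCGA (a CpG-rich palindrome found in promoters).
PUM3 promoter, chr9:2844046-2844345, minus strand: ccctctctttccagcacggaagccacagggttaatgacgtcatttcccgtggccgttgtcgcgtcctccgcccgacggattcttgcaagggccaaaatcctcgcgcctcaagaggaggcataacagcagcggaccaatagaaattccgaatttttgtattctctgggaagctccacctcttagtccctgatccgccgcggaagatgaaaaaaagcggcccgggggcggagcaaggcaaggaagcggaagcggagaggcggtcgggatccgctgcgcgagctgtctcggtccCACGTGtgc
DDX10 promoter, chr11:108664819-108665118, plus strand: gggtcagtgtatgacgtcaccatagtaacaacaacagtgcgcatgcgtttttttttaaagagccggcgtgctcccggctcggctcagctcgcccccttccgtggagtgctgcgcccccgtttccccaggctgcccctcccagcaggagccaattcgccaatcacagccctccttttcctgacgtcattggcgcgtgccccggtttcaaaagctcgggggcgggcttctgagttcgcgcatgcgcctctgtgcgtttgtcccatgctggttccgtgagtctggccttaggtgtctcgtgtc
NCL promoter, chr2:231464435-231464734, minus strand: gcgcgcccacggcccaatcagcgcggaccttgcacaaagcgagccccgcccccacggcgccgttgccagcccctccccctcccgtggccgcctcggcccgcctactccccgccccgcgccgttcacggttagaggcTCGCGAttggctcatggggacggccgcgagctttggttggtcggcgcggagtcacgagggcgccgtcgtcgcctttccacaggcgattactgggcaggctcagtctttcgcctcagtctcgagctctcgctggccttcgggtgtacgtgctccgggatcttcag
POLR1B promoter, chr2:112541786-112542085, plus strand: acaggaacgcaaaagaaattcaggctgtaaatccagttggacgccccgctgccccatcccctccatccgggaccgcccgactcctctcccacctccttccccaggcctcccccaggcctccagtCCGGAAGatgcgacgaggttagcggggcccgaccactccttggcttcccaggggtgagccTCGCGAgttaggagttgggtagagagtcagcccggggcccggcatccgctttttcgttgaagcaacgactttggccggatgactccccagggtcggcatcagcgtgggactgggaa
DKC1 promoter, chrX:154762614-154762913, plus strand: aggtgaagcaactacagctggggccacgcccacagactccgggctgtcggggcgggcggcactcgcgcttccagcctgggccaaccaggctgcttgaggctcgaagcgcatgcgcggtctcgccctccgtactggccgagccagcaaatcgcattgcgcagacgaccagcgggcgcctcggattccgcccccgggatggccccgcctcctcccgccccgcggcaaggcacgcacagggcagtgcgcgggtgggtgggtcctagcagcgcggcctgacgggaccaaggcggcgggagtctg
The PUM3 run holds CACGTG 42 bases after the start, the NCL run TCGCGA 114 bases before it, and the POLR1B run CCGGAAG at 126 and TCGCGA at 66 bases before it. The DDX10 and DKC1 runs hold none of the 3 motifs.

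Of the 45 genes, 39 had a promoter in the RefSeq table, and BOP1, DDX18, NOLC1, NOP58, RRP12 and RRP1B did not. CACGTG was found in 15 of the 39 (38.5%), against 10.0% of 11033 promoters of tested genes and 7.43% of all 27305 promoters in the table. CCGGAAG on either strand was found in 12 of the 39 (30.8%), against 19.4% and 10.7%. TCGCGA was found in 6 of the 39 (15.4%), against 5.90% and 3.16%. CACGTG and TCGCGA read the same on both strands, and matches of the 3 motifs were counted apart even where a promoter held more than 1. In NOP10, 170 and 11 bases before the start, CACGTG occurred in 2 places. Members with CACGTG, PUM3 among them, had a median log2 fold change of -0.25 and members without it -0.38, while over all tested genes the medians were -0.05 with it and -0.0035 without. Members with TCGCGA were at -0.41 and those without at -0.32. The fold changes had been in view when the list was made, so nothing is read from these medians. A match is a run of letters and not a measured site of binding.

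Before the results, 3 facts about the libraries bear on them. The libraries held 11712623 to 14018052 counted reads. TRIM28, the target, was at 102, 100.6 and 108 CPM (reads scaled to library total, with TMM factors) in siNC replicates 1 to 3 and at 9.28, 8.11 and 9.21 in siTRIM28, a log2 fold change of -3.54 ± 0.07 (SE), so each library carried the TRIM28 level of its label. Within each group 2 libraries lay closer to each other than to the third: siNC replicates 1 and 2 differed by a chi-square of 1.08 per degree of freedom against 4.59 and 4.66 to replicate 3, and siTRIM28 replicates 2 and 3 by 1.24 against 6.99 and 6.30 to replicate 1. A value of 1 is what counting alone would give, so each close pair differed by little more than that. SDs, SEs and p-values from all 6 libraries count such a pair as 2 samples. The results below count all 6 libraries, and the main counts are also given with each close pair summed into 1 sample. Of epithelial markers KRT8 and KRT18 were at 81.7 to 120 CPM and KRT7 at 2.66 to 4.31 CPM, while EPCAM, CDH1, GATA3, KRT5, KRT19, UPK1B, UPK2 and UPK3A stayed below 1 CPM in every library. PTPRC, CD3E, PECAM1, CDH5, VWF, DCN, DES and ALB, markers of other cell types, were below 1 CPM in every library. CD68 was at 338 to 361 CPM in both groups and COL1A1 at 0.706 to 3.80 CPM. UPK1A was at 0.314 to 4.14 CPM and TP63 at 0.289 to 1.27 CPM. Of these markers KRT7, KRT8, UPK1A, COL1A1 and, at the edge of the threshold, TP63 were higher in siTRIM28, at log2 fold changes of 0.56, 0.14, 1.94, 1.78 and 1.01, and their part in the results was not tested. In bulk RNA, fewer cells of a kind and less RNA per cell cannot be told apart.

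Most of the 45 genes were lower after TRIM28 knockdown, PUM3 by far the most, and 1 was higher. By the edgeR quasi-likelihood fit, at a Benjamini-Hochberg adjusted p under 0.05, 32 were lower, 1 was higher and 12 did not pass. Of all 18474 genes tested 41.8% passed, 20.5% lower and 21.3% higher. The 3 siTRIM28 libraries lay wholly below the 3 siNC libraries in 36 of the 45 genes (25.7% of all genes) and wholly above in 2, DKC1 and RRN3 (26.3% of all genes). The other 7 overlapped. The median log2 fold change of the 45 was -0.32, or -0.29 without PUM3, and that of all genes tested was 0.02. The middle of the list was narrow, with quartiles at -0.43 and -0.20, against -0.25 and 0.30 for all genes. Since the genes were put together with this contrast known, these shares describe the list and support nothing about it.

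**Figure D1:**
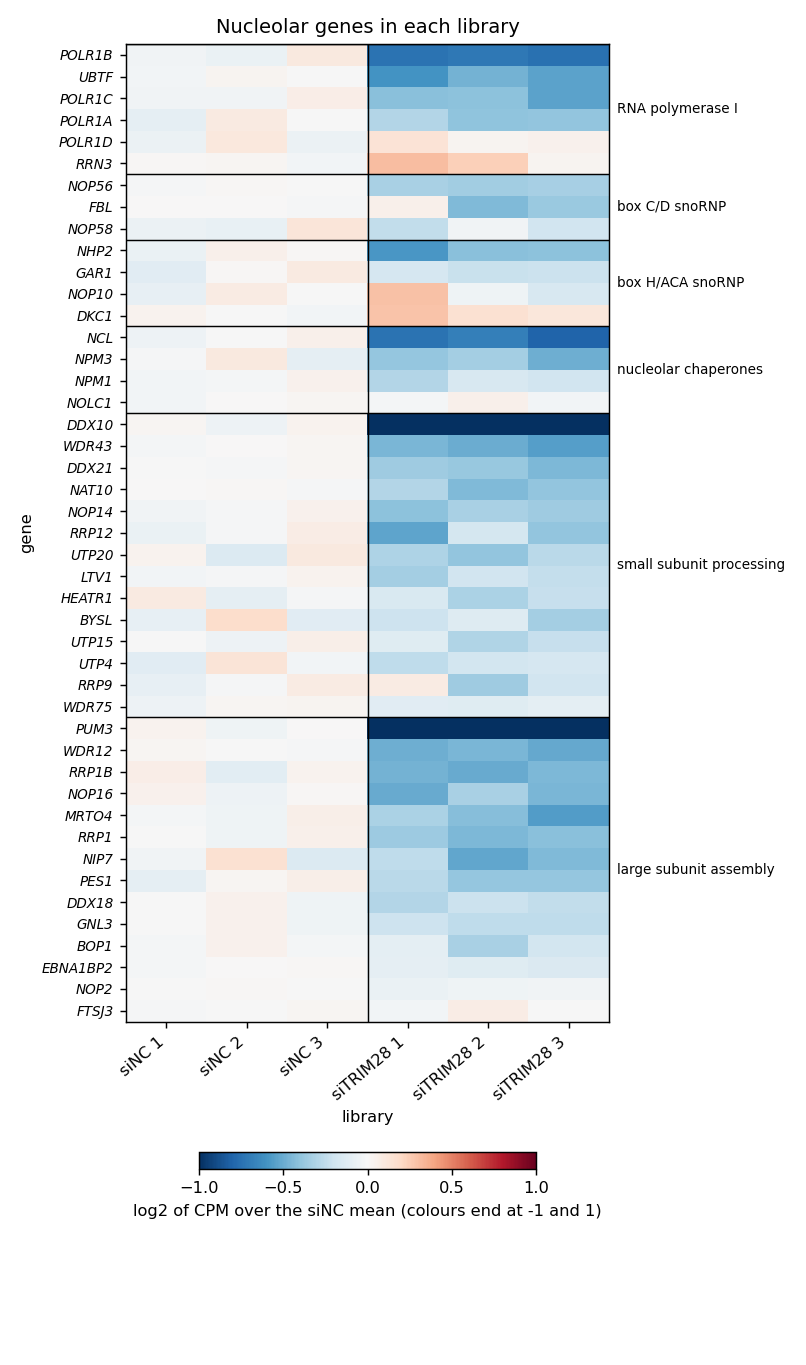
Each row is 1 of the 45 genes by role and each column 1 library; the colour gives the log2 of its CPM over the siNC mean, with colours ending at -1 and 1. PUM3 and DDX10 are at the lower end of the scale in all 3 siTRIM28 libraries, while DKC1 and RRN3 are above the siNC mean in all 3.

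By library, 39 of the 45 genes were below the siNC mean in siTRIM28 replicate 1, 40 in replicate 2 and 42 in replicate 3. The medians were -0.29, -0.33 and -0.34 on the log2 scale. These libraries were in view when the list was made and were set against the same siNC mean. The counts by library are therefore a description and no replication. The share of all genes below the siNC mean in each library was not counted. With the close pairs summed, 27 of the 45 were lower and 0 were higher, with a median of -0.36. Of all 20157 genes tested in that fit 28.9% passed, and 45.9% of those were higher. DKC1, GAR1, UTP15, HEATR1, BOP1 and EBNA1BP2 no longer passed there, all 6 with a main log2 fold change between -0.23 and 0.18. Together the 45 genes took 1.25% to 1.28% of the counted reads in siNC and 1.00% to 1.04% in siTRIM28. NPM1 and NCL alone held 49.3% to 53.0% of the reads of the list in each library, so that share rests in large part on them.

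**Figure D2:**
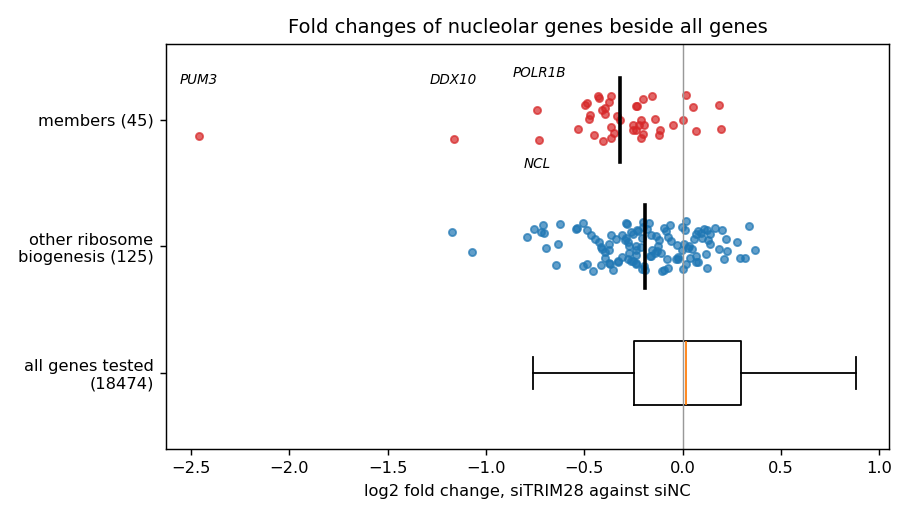
Log2 fold change of siTRIM28 against siNC (x axis) for each of the 45 genes, for each of 125 other ribosome biogenesis genes and, as a box, for all 18474 genes tested; black bars are medians, the box spans the quartiles and its whiskers the 5th and 95th percentiles. The median is -0.32 for the 45 genes, -0.19 for the 125 and 0.02 for all genes, and PUM3 and DDX10 stand apart on the left.

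PUM3 (ENSG00000080608, chr9:2720469-2844095, minus strand) encodes a Puf-family RNA-binding protein of the nucleolus that takes part in making the large subunit. It was at 222, 210 and 217 CPM in siNC and at 40.8, 38.3 and 38.9 CPM in siTRIM28. The groups lay far apart, and the 3 libraries within each group were close. The raw counts were 3085, 2912 and 2770 in siNC against 572, 453 and 461 in siTRIM28. The mean went from 217 ± 5.92 to 39.3 ± 1.34 CPM (SD, n = 3), a log2 fold change of -2.46 ± 0.05 (SE) that leaves 18.2% of the siNC level. Only 14 of all genes tested, PUM3 included, were at or below that value (0.0758%). Per length, PUM3 was the 7th highest of the 45 genes in siNC with 83.4 ± 2.48 RPKM (reads scaled to gene length and library total) and the 22nd in siTRIM28 with 15.3 ± 0.494 RPKM. Its log2 fold change was between -2.49 and -2.43 in every alternative fit, the close pairs included.

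PUM2, a Puf-family gene whose product represses mRNAs in the cytoplasm, was at 58.1, 59.7 and 60.4 CPM in siNC and at 53.7, 54.8 and 54.1 in siTRIM28 (log2 fold change -0.13, adjusted p = 0.0624, edgeR quasi-likelihood). It did not overlap between the groups but was not past the threshold.

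Around PUM3 on chromosome 9, its own strand holds ENSG00000290482 (chr9:2834116-3182085), an unnamed gene that shares 9980 bases with the upstream end of PUM3. Its counts were 1538, 1442 and 1294 in siNC and 287, 206 and 207 in siTRIM28. Its log2 fold change of -2.51 ± 0.07 (SE; adjusted p = 8.69e-10, edgeR quasi-likelihood) is within 1 SE of that of PUM3. How reads in the shared bases were given to the 2 genes is not stated, so their counts are not independent. At the other end, ENSG00000286670 shares 25942 bases with PUM3 on the same strand and was higher in siTRIM28 at 1.03 ± 0.18, with at most 67 reads in a library. The nearest tested genes beyond these were higher too: VLDLR, the VLDL receptor gene, at 0.85 ± 0.06, its antisense RNA VLDLR-AS1 at 1.00 ± 0.19, the transcription factor gene RFX3 at 0.59 ± 0.09 and its divergent transcript RFX3-DT at 1.15 ± 0.18. GLIS3, a Krüppel-like zinc finger gene further along, was lower at -0.55 ± 0.11. SMARCA2-AS1 was at 0.59 ± 0.47 and not past the threshold. The fall was thus seen in PUM3 and the gene that overlaps its start, and not in the next tested genes on either side. Of those without overlap, VLDLR lies 60.4 kb and RFX3 374 kb from PUM3.

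Among 6 genes of RNA polymerase I and its factors, 4 were lower (20.5% of all genes) and none was higher (21.3% of all genes) at the threshold. The median was -0.41. POLR1B, the second largest subunit of the enzyme, was the lowest of the group at 16.3, 16.0 and 18.0 CPM in siNC and 10.1, 10.2 and 9.97 in siTRIM28 (log2 fold change -0.73 ± 0.08). UBTF, which binds and bends the ribosomal DNA promoter, was at 285, 295 and 290 CPM and at 192, 209 and 201 (-0.53 ± 0.04). In both genes the groups were apart by more than the spread in either. POLR1C, a subunit shared with RNA polymerase III, was at -0.45 and the largest subunit POLR1A at -0.36. POLR1D, the partner of POLR1C, was at 0.07 and did not pass. RRN3, which links the polymerase to its promoter, was the highest at 24.8, 24.99 and 24.1 CPM in siNC and 30.5, 29.1 and 25.1 in siTRIM28 (0.20 ± 0.08). It did not pass in the test used throughout. It passed on all 6 libraries with upper-quartile scaling (0.23), with total counts (0.21) and with the replicate block (0.19), and at 0.27 without siTRIM28 replicate 3, whose value lay nearest to siNC. UBTF was 11.5 to 12.01 times RRN3 by CPM in siNC and 6.29 to 8.003 times in siTRIM28, which restates their opposite fold changes.

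Of the 3 box C/D snoRNP proteins 1 was lower (20.5% of all genes), a group too small to set against that share. The median was -0.24. NOP56, a core protein of the particle, was at 317, 323 and 319 CPM in siNC and 255, 251 and 254 in siTRIM28 (-0.34 ± 0.04), with little spread in either group. FBL, the methyltransferase of the particle, was at 261, 260 and 257 CPM in siNC but at 269, 192 and 200 in siTRIM28. Its first siTRIM28 library was above all siNC libraries and the other two were well below them. FBL was at -0.24 ± 0.10 and did not pass in the test used throughout. It passed on all 6 libraries with DESeq2 (-0.24), without the filter on low counts (-0.24) and with the replicate block (-0.25), and was at -0.40 and passed without siTRIM28 replicate 1. NOP58, the other core protein, was at 202, 200 and 229 CPM against 177, 206 and 185 (-0.15 ± 0.07) and overlapped between the groups. It passed on all 6 libraries without the filter on low counts, at -0.16, and at -0.23 without siTRIM28 replicate 2.

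The 4 box H/ACA snoRNP proteins, which form 1 particle, did not share a direction. NHP2 was the lowest at 113, 122 and 119 CPM in siNC and 78.8, 88.3 and 88.7 in siTRIM28 (-0.47 ± 0.06). GAR1 was lower at -0.20, but its call was lost in many alternative fits. Among these were upper-quartile scaling (-0.17), DESeq2 (-0.21) and the close pairs summed (-0.24). NOP10 was at 0.05 and did not pass. DKC1, the pseudouridine synthase of the particle and also a part of telomerase, was the highest at 531, 517 and 508 CPM in siNC and 631, 576 and 561 in siTRIM28 (0.18 ± 0.05). It was the 1 member past the threshold on the higher side, and it no longer passed with the close pairs summed, at 0.19. The ratio of DKC1 to NHP2 by CPM was 4.70, 4.24 and 4.27 in siNC and 8.01, 6.53 and 6.33 in siTRIM28. The pair are the highest and the lowest of the group by fold change, so this ratio only restates their fold changes.

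Of the 4 nucleolar chaperones and scaffolds 3 were lower (20.5% of all genes), with a median of -0.31. NCL (nucleolin), an abundant RNA-binding protein of the nucleolus, was at 2173, 2244 and 2332 CPM in siNC and 1350, 1397 and 1289 in siTRIM28 (-0.74 ± 0.04). This leaves 59.8% of the siNC level and, with an RPKM of 250 in siNC, is the change of 1 of the most abundant mRNAs in the list. NPM1 (nucleophosmin) was the most abundant of the 45 genes at 527 ± 10.6 RPKM in siNC and 461 ± 23.6 in siTRIM28 (-0.21 ± 0.04). NPM3, its smaller relative, was at -0.40. NOLC1 (Nopp140), which gathers snoRNPs in the nucleolus and Cajal bodies, was at 397, 407 and 412 CPM in siNC and 401, 421 and 399 in siTRIM28. Its log2 fold change was 0.00 ± 0.04, and its groups overlapped. NOLC1 was 0.177 to 0.183 times NCL by CPM in siNC and 0.297 to 0.309 times in siTRIM28. The pair are the highest and the lowest of the group, so this too restates their fold changes.

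**Figure D3:**
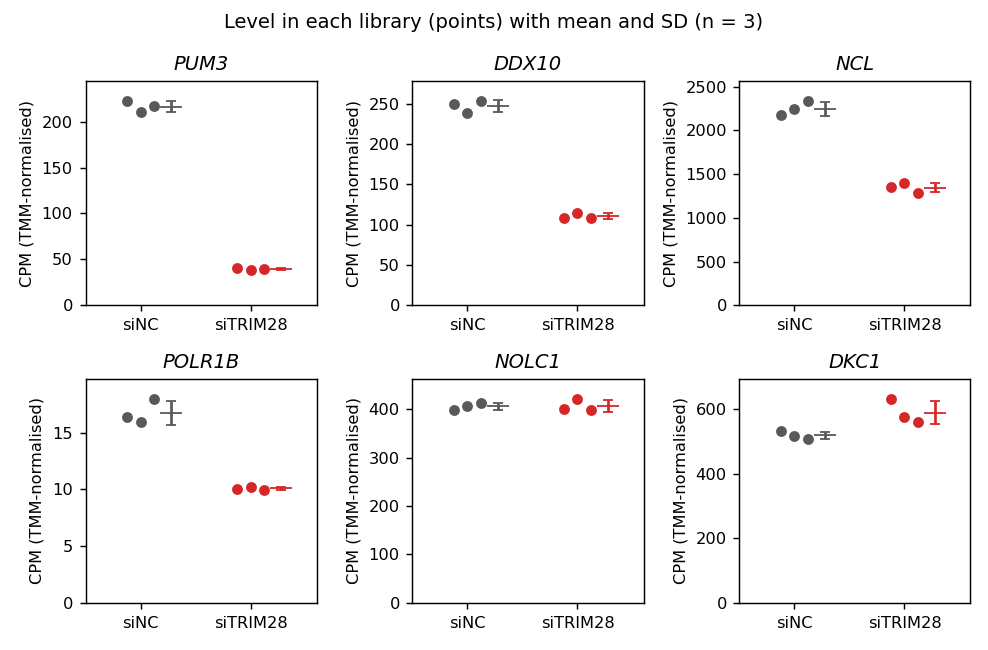
CPM (y axis, from 0) of 6 genes in each library (points), with mean and SD of 3 libraries per group. PUM3, DDX10, NCL and POLR1B are lower in every siTRIM28 library than in any siNC library, DKC1 is higher in every one, and NOLC1 overlaps.

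Of 14 genes of small subunit processing 10 were lower (20.5% of all genes) and none was higher (21.3% of all genes). All 14 were below 0, with a median of -0.29. DDX10, a DEAD-box helicase of the small subunit processome, was at 251, 239 and 253 CPM in siNC and 109, 115 and 108 in siTRIM28. The log2 fold change of -1.16 ± 0.04 leaves 44.6% of the siNC level. DDX10 lies on chromosome 11. The nearest tested genes on its 2 sides were EXPH5, 71.3 kb away, and RDX, 923 kb away. EXPH5 was higher at 1.28 ± 0.24, and RDX was at -0.02 ± 0.04 and not past the threshold. WDR43, which belongs to the subcomplex that joins transcription to processing, was next lowest at -0.50. UTP15 (-0.21) and HEATR1 (-0.23) of the same subcomplex were lower, while UTP4 (-0.20) and WDR75 (-0.11) did not pass. UTP4 passed on all 6 libraries with the replicate block, at -0.20, and at -0.27 without siNC replicate 1. WDR75 was the highest of the 14 at 32.97, 34.7 and 34.8 CPM in siNC and 31.5, 31.3 and 31.9 in siTRIM28, groups that did not overlap but lay near each other. The helicase DDX21 was at -0.39, the RNA acetyltransferase NAT10 at -0.37 and the processome factors NOP14 and UTP20 at -0.36 and -0.32. RRP12, which takes part in export of the subunits, was at -0.36 and LTV1, a late factor of the small subunit, at -0.25. The small subunit factor BYSL (-0.22) and the U3 snoRNP protein RRP9 (-0.14) did not pass. RRP9 overlapped through its first siTRIM28 library and was at -0.27 and passed without it.

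Of 14 genes of large subunit assembly 12 were lower (20.5% of all genes) and none was higher (21.3% of all genes), with a median of -0.37. After PUM3 the lowest was WDR12, at 54.6, 53.9 and 53.5 CPM in siNC and 38.4, 39.4 and 37.8 in siTRIM28 (-0.49 ± 0.06). WDR12 forms the PeBoW complex with PES1 (-0.35) and BOP1 (-0.20), and all 3 were lower, by unequal amounts. RRP1B and RRP1, a pair of paralogs, were at -0.47 and -0.41. NOP16 (-0.43), MRTO4 (-0.43), a factor that holds the place of the stalk protein P0, and NIP7 (-0.40), all 3 of them large subunit assembly factors, were close to these values. The helicase DDX18 was at -0.25, the GTPase GNL3 (nucleostemin) at -0.24 and the assembly factor EBNA1BP2 at -0.12. The 2 that did not pass were both rRNA methyltransferases, NOP2 at -0.05 and FTSJ3 at 0.02. Both overlap another tested gene, and how far they share reads with it was not tested. FTSJ3 was the highest of the 14 at 291, 293 and 298 CPM in siNC and 289, 309 and 294 in siTRIM28. FTSJ3 was 1.31 to 1.39 times PUM3 by CPM in siNC and 7.06 to 8.09 times in siTRIM28, which restates the highest and the lowest fold change of the group.

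By size, PUM3, DDX10, NCL and POLR1B were the 4 members past the threshold with a log2 fold change under -0.58 (7.51% of all genes tested). The other 28 lower members lay between -0.53 and -0.12. Of the 45 genes 39 were below 0 and 6 above, namely POLR1D, RRN3, DKC1, NOP10, NOLC1 and FTSJ3. SEs over the list were 0.04 to 0.11, so a member at -0.12, such as EBNA1BP2, sat near the limit of what 3 libraries a group could call.

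The genes were picked by symbol for their role, but the contrast in view at the time holds the siNC levels. These levels are therefore a description too. By RPKM, which scales reads by the deposited gene length, the list ran from POLR1B at 1.84 ± 0.103 to NPM1 at 527 ± 10.6. The order of genes therefore depends on that length too. After NPM1 came NCL at 250 ± 6.92, FBL at 120 ± 1.86, LTV1 at 109 ± 1.34 and NOLC1 at 101.2 ± 1.23. In siNC 44 of the 45 were above the median of all tested genes, and 19 were among the top 10% by level. The lowest were the polymerase subunits POLR1B, POLR1C (2.73 ± 0.0929) and POLR1A (3.23 ± 0.195) and the processome protein UTP20 (3.13 ± 0.244). The last 2 differ by less than their SDs. Many members changed place in the order of levels. Among them PUM3 went from 7th to 22nd, DDX10 from 27th at 13.6 to 34th at 6.14 RPKM, and DKC1 from 14th at 55.9 to 7th at 64.3 RPKM.

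Several members share sequence or position with other genes, which bears on their counts. On the opposite strand 21 members overlap a tested gene, and on the same strand 7 do. NOP14 at -0.36 overlaps NOP14-AS1 at -0.40, UBTF at -0.53 overlaps ATXN7L3-AS1 at -0.55, and NOP16 at -0.43 overlaps ARL10 at -0.45. FTSJ3 at 0.02 overlaps PSMC5 at 0.01 on the opposite strand. On its own strand NOP2 at -0.05 shares 11393 bases with ENSG00000285238 at 0.07, which averaged 9967 counts per library. EBNA1BP2 at -0.12, in contrast, overlaps CFAP57 at 1.93 and RRN3 at 0.20 overlaps PDXDC1 at -0.12. The strand setting of the counting was not given, so how far these values share reads was not tested. Pseudogenes named after a member exist for 12 of the 45, with counts equal to 12.6% of those of RRN3, 4.66% of PES1 and 4.30% of NPM1, so these 3 levels are less certain. Inside 6 members, on the same strand, lie 21 snoRNA genes, 5 in NOP56, 4 each in NOP58 and GNL3, 3 each in NCL and WDR43 and 2 in DKC1. Such snoRNAs are cut from introns of the host and carry no poly(A) tail, so these libraries do not measure them. The 45 genes lie on 20 chromosomes.

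A wider list of 125 other ribosome biogenesis genes, all tested, covered more of the pathway. Of these, 64 were lower (51.2%) and 10 higher (8.0%) by the same edgeR quasi-likelihood fit and threshold. The shares of all genes tested were 20.5% and 21.3%. Another 51 of the 125 did not pass, and the median was -0.19. This list was also chosen with earlier results of these data known, so its counts are a description. Below 0 were 90 of the 125. With the close pairs summed 57 were lower and 4 higher, in a fit that called 28.9% of all genes tested. By role, 25 of 43 further small subunit genes were lower and 2 higher, and 24 of 45 further large subunit genes were lower and 2 higher. Of 11 genes of snoRNP assembly and the nucleolar scaffold 8 were lower and 2 higher (18.2%). Of 9 further polymerase I genes 4 were lower and 2 higher (22.2%). Both higher shares were near that of all genes. Of 17 genes of the exosome and of trimming, which cut and degrade rRNA ends, 3 were lower (17.6%) and 2 higher (11.8%). Neither share was above that of all genes, and the median was 0.06.

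The 5 lowest of the 125 were RIOK1 (-1.18 ± 0.08), an atypical kinase of the small subunit, EXOSC2 (-1.07 ± 0.05), a cap subunit of the exosome, PDCD11 (-0.79 ± 0.05), the helicase DDX52 (-0.75 ± 0.06) and UTP18 (-0.72 ± 0.04), all 3 of small subunit processing. RIOK1 was at 98.3, 96.9 and 109 CPM in siNC and 41.5, 50.3 and 43.1 in siTRIM28. EXOSC2 was at 98.6, 95.4 and 103 CPM and at 45.7, 47.0 and 48.6. Both were near DDX10 in size and neither was near PUM3. The 5 highest past the threshold were TAF1B (0.37 ± 0.10) and TAF1D (0.23 ± 0.04) of the polymerase I selectivity factor, the helicase DDX24 (0.34 ± 0.04), GNL3L (0.32 ± 0.08), a relative of GNL3, and PIH1D1 (0.28 ± 0.08) of the snoRNP assembly machinery.

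MYC, a transcription factor known to drive many ribosome biogenesis genes, was at 107, 108 and 118 CPM in siNC and 62.3, 63.8 and 64.0 in siTRIM28, with no overlap (log2 fold change -0.81 ± 0.05, adjusted p = 3.79e-07, edgeR quasi-likelihood). Its partner MAX was at 64.1, 64.9 and 57.2 CPM and at 65.6, 57.9 and 60.0 (-0.02, adjusted p = 0.839, edgeR quasi-likelihood) and overlapped. The part of MYC in the values of the 45 genes was not tested.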

How the data were processed

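RNA was measured by poly(A) RNA-seq in 3 siNC and 3 siTRIM28 libraries of T24 cells. The authors deposited raw counts per gene, and the submitters' processing notes name fastp 0.23.1, STAR 2.7.6a, featureCounts and GRCh38. The annotation release, strand setting and handling of multimapped and duplicate reads are not given in the sources used here. A second deposited table with RPKM of genes the authors selected was not used. Groups follow the sample titles. The members and lists were chosen with earlier results of these data known.

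Genes that reached 10 counts in 3 or more libraries were fitted with edgeR 4.0.16 (TMM, glmQLFit and glmQLFTest, condition only, R 4.3.3), with Benjamini-Hochberg adjustment over all 18474 genes tested and a threshold of 0.05. CPM are TMM-normalised. RPKM were computed from the counts, the deposited gene length and the column total. Totals of 11712623 to 14018052 reads limit precision for genes with few reads. Alternatives were other scalings, DESeq2 1.42.0, limma 3.58.1 (voom), other filters, a replicate block, each library left out and close pairs summed (10 counts in 2 of the 4 samples). Named genes are all members; values in every library are given for TRIM28, PUM3 and the lowest and highest member of each role, with further members where a library decided the value; of other ribosome biogenesis genes the 5 lowest and 5 highest past the threshold are named. One gene named by the rule is not reported here. Overlaps and promoter motifs are from the deposited coordinates and RefSeq GRCh38.p14. Matches to the siRNA guides and protein features were not analysed here.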

Additional observations from a re-analysis of the deposited data

How the results depend on the processing

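The median of the 45 genes stayed between -0.36 (close pairs summed) and -0.28, PUM3 between -2.49 and -2.43 and TRIM28 between -3.58 and -3.49 in every alternative, and no member with a call changed sign. Members lower were 27 with the close pairs summed and at an adjusted p under 0.01, 30 with DESeq2 and 29 to 34 with a library left out. The share of all tested genes that passed moved too, from 41.8% in the main analysis to 28.9% with the close pairs summed. It was 31.8% with DESeq2, 42.8% with the replicate block and 34.89% to 44.97% with a library left out. The share at 0.01 was not counted. Counts of the 45 and of the 125 genes by setting are to be read against these shares. Members higher were 2 with upper-quartile scaling, with total counts and with the replicate block, 0 with the close pairs summed, and 1 to 2 with a library left out. Of the other 125 genes, 10 were higher in the main analysis, 5 with DESeq2, 4 with the close pairs summed, 4 at an adjusted p under 0.01, and 4 to 11 with a library left out, and 54 to 69 were lower with a library left out (52 with DESeq2, 49 at 0.01). The cause was not tested. Upper-quartile scaling put 56.6% of called genes on the higher side against 51.1%. Replicate numbers did not pair the libraries (correlations of deviations 0.05, -0.01 and 0.04), and the fit with the replicate block called 34 members lower and 2 higher. GAR1, UTP15 and EBNA1BP2 lost their call in several settings, HEATR1 and BOP1 in those without siTRIM28 replicate 2 and with the close pairs summed. HEATR1 also lost it without siNC replicate 1, and BOP1 without siNC replicate 2. Calls were gained on all 6 libraries by RRN3 (upper-quartile scaling, total counts, replicate block), FBL (DESeq2, no filter, replicate block), NOP58 (no filter) and UTP4 (replicate block).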
